A study of Mus musculus with 24 samples.

Results

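The SWI/SNF chromatin remodelers of mammals are assembled around an ATPase motor into separate complexes, cBAF, PBAF and ncBAF, which share most subunits and differ by a few that belong to only some of them. PBAF is defined by Baf180 (gene *Pbrm1*), Arid2 (Baf200), Brd7 and Phf10 (Baf45a). Baf180 carries a row of bromodomains that bind acetylated histones, Arid2 is the AT-rich-interaction subunit around which the PBAF-specific module is built, Brd7 is a bromodomain protein related to Brd9 of ncBAF, and Phf10 is a PHD-finger protein that takes the place the Dpf proteins hold in cBAF. In muscle, the study's authors tie cBAF to control of myogenic transcription factors. They write that PBAF appeared mostly dispensable for the expression of myogenic genes.

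The transcripts of these 4 PBAF-specific subunits are described here, 4 of the 55291 gene symbols counted. They were chosen by complex membership and not by their values, and all 4 passed the filter on low counts in every comparison. RNA was sequenced from myoblasts, which the labels call primary mouse myoblasts and the study's methods C2C12, an established mouse muscle line. There were 4 lines: a scrambled control (scr) and knockdowns (KD) of *Baf180* (*Pbrm1*), *Baf250a* (*Arid1a*, a cBAF subunit) and *Brd9* (an ncBAF subunit). By the study's methods all lines, the control included, stably carried a lentiviral shRNA vector under puromycin, whereas the labels describe knockdown by Lipofectamine. This conflict could not be settled here. For 48 h each line received no added metal (NT), CuSO4 at 100 µM or ZnSO4 at 50 µM, in 2 biological replicates, which gives 24 libraries. How many separately transduced populations each line stands for is not stated, so the effect of a KD cannot be told apart from other differences between those cells and scr cells. In bulk RNA, fewer cells of a type and less RNA per cell cannot be told apart either.

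Counts per library totaled 495778 to 75179394 (median 22158430). The lowest belongs to *Baf250a* KD with Zn, replicate 2, and the next lowest is 12719173. In that shallow library the members had only 29 to 59 counts each, against at least 703 in every other library, so the main results that involve it are also given without it. The myoblast markers *Myod1* (67.6 to 153 CPM), *Des*, *Itga7*, *Cdh15* and *Myf5* were present in all libraries, and *Pax7*, a satellite cell marker, was at most 5.41 CPM. Some of them differed between lines: *Des* was at 1608 to 2519 CPM in scr and 777 to 1355 CPM in KD cells, and *Itga7* at 661 to 1100 CPM and 212 to 540.5 CPM. *Myf5* was at 114 to 194.5 CPM in scr, 36.3 to 56.9 CPM in *Baf180* KD, 15.6 to 40.2 CPM in *Baf250a* KD and 88.5 to 105.5 CPM in *Brd9* KD cells, and *Cdh15* at 302.5 to 443 CPM in scr and 115 to 324 CPM in KD cells. Others were higher in some KD lines. *Myod1* was at 120.6 to 153 CPM in *Baf250a* KD against 67.6 to 115.5 CPM in scr, with *Baf180* and *Brd9* KD overlapping scr. *Pax7* was at 2.76 to 3.53 CPM in *Baf180* KD and 2.65 to 5.41 CPM in *Brd9* KD cells. It was at 0.948 to 1.62 CPM in scr and 0 to 1.055 CPM in *Baf250a* KD cells. *Myog*, an early differentiation marker, was at 23.96 to 35.6 CPM in *Baf180* KD cells against 3.67 to 7.07 CPM in scr cells, and *Myh3*, an embryonic myosin, was at 23.2 to 39.9 CPM against 4.11 to 6.56 CPM. The other 3 differentiated muscle markers on the list (*Acta1*, *Ckm* and *Tnnt3*) overlapped between these lines. In *Brd9* KD cells each of these markers was below the scr range, with *Myog* at 2.09 to 3.56 CPM and *Myh3* at 1.51 to 2.90 CPM. *Acta1* was at 18.4 to 22.9 CPM there, against 46.7 to 75.3 CPM in scr cells. In *Baf250a* KD cells *Myh3* was above the scr range (7.38 to 15.55 CPM), *Acta1* below it (27.65 to 35.95 CPM), and *Myog*, *Ckm* and *Tnnt3* overlapped with it. *Pdgfra*, a marker of mesenchymal cells, was at 3.78 to 5.55 CPM in scr, 19.6 to 25.4 CPM in *Baf180* KD, 53.6 to 66.1 CPM in *Baf250a* KD and 8.05 to 10.9 CPM in *Brd9* KD cells, while the other 5 markers of other cell types were at most 0.377 CPM. The part of these markers in the results below was not tested. CPM are counts relative to library size after TMM scaling, and a gene is "called" where its edgeR adjusted p is under 0.05.

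*Pbrm1* lies on chromosome 14 (GRCm38 chr14:31019138-31121592, plus strand). The study lists 2 shRNAs against it and does not say which one the sequenced line carried. The 21-base target sequences are shown because they give the places in the transcript at which either shRNA was aimed.

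Baf180 shRNA1: tgtgaagttggtcctagttta

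Baf180 shRNA2: gtgcaatatccagactattat

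The first target lies in the 3′ UTR (chr14:31119323-31119343, plus strand) and is present in 4 of the 13 annotated coding transcripts. The second lies in coding sequence and spans an exon junction, with its first bases at chr14:31036057-31036059 and the rest at chr14:31038933-31038950, and 11 of the 13 coding transcripts contain it. Among annotated transcripts only those of *Pbrm1* match either sequence exactly. The closest stretches in *Arid2*, *Brd7* and *Phf10* differ from these targets at 7 or 8 of 21 bases. Shorter seed matches were not examined.

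*Pbrm1* was lower in *Baf180* KD than in scr cells under all 3 treatments. Without metal it was at 65.8 and 75.7 CPM in *Baf180* KD cells and at 143 and 99.9 CPM in scr cells. With Cu it was at 42.2 and 56.0 CPM in KD and at 126 and 171 CPM in scr cells. With Zn it was at 51.0 and 63.1 CPM in KD and at 222 and 227 CPM in scr cells. All 6 KD libraries lay below the lowest scr library. The share of all genes without overlap is not given here, for this comparison or for those below. Over the 3 treatments together, the transcript left in *Baf180* KD cells was 36.1% of scr (95% interval 26.9% to 48.4%; log2 fold change -1.47, SE 0.20, edgeR adjusted p = 4.76e-05). Over this comparison 41.3% of all genes tested were called, and *Pbrm1* stood at percentile 2.1 of the fold changes, counted from the lowest.

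**Figure D1:**
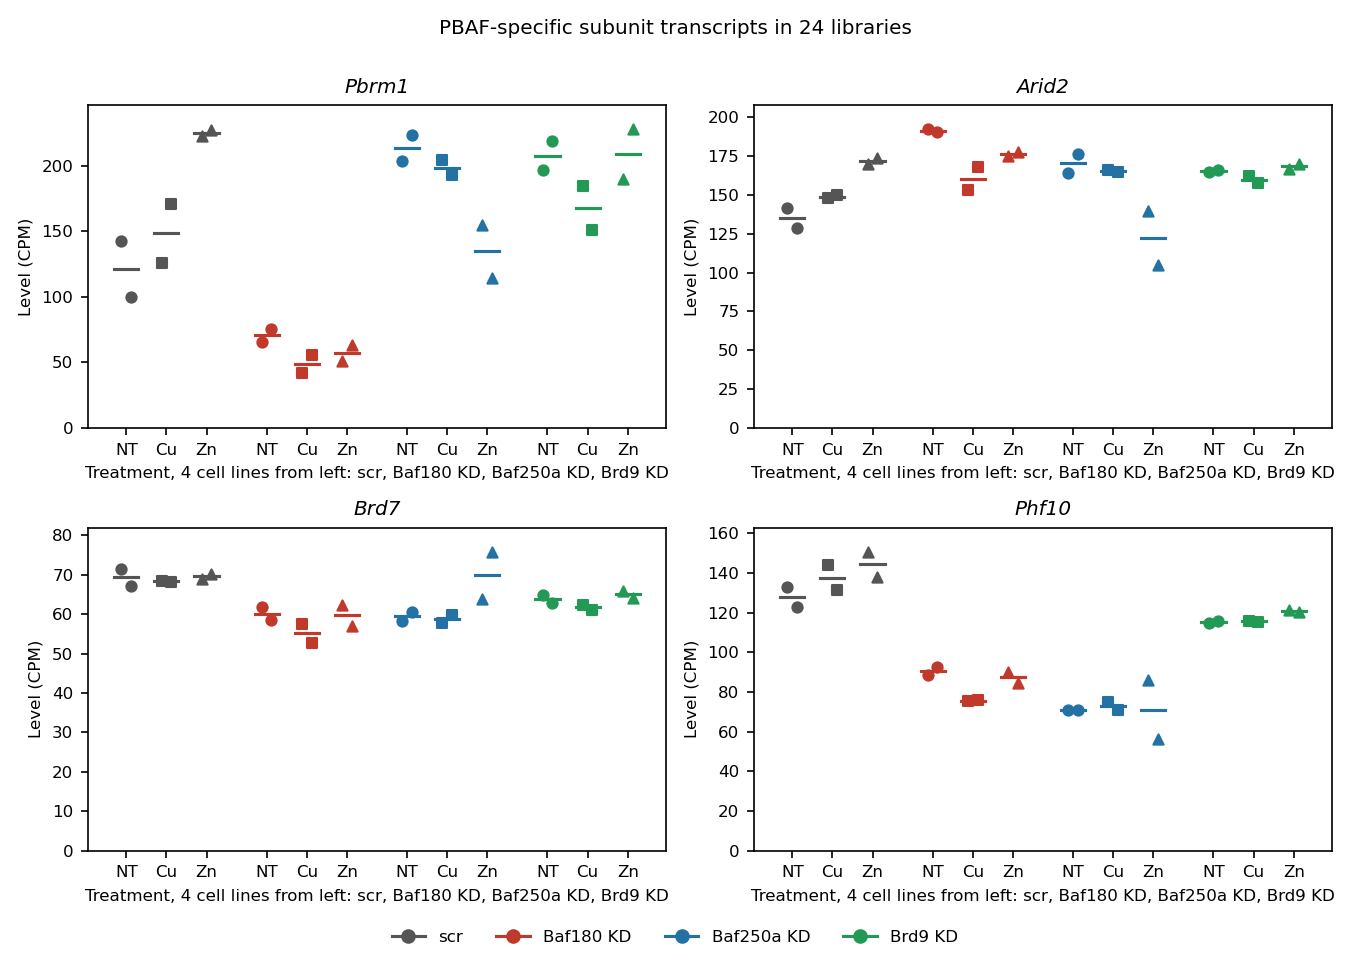
Level of each PBAF-specific subunit (CPM) in the 24 libraries, grouped by cell line (color) and treatment (NT circles, Cu squares, Zn triangles), with bars at the mean of 2 replicates. *Pbrm1* is lowest in the 6 *Baf180* KD libraries (42.2 to 75.7 CPM), and *Phf10* lies below the scr range (123 to 151 CPM) in all 3 KD lines.

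The depth of the knockdown, read within each treatment, was shallowest without metal. *Pbrm1* was left at 59.2% of scr without metal (95% interval 46.6% to 75.1%; edgeR adjusted p = 0.00274). This value rested on single libraries: the log2 fold change was -0.76, but -0.49 without scr NT replicate 1 and -0.9996 without scr NT replicate 2, both still called. It was left at 32.9% with Cu (24.9% to 43.4%; edgeR adjusted p = 8.87e-05) and at 24.5% with Zn (20.9% to 28.7%; edgeR adjusted p = 1.23e-06). In these comparisons of 2 libraries with 2, 41% of all genes were called without metal, 24.9% with Cu and 49.9% with Zn. With Zn, only the scr side of this comparison had a called change. From NT to Zn, *Pbrm1* in scr cells was at a log2 fold change of 0.98 (edgeR adjusted p = 0.0290, SE 0.21), and in *Baf180* KD cells at -0.32 (edgeR adjusted p = 0.399, SE 0.15). The Zn effect in scr cells was no longer called without scr NT replicate 2 (0.72, edgeR adjusted p = 0.191), without scr Zn replicate 1 (1.00, 0.128) or without scr Zn replicate 2 (0.95, 0.192).

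The level of *Pbrm1* also moved with the way counts depended on GC content and transcript length. *Pbrm1* has the lowest GC content of the 4 genes (41.8%, against 45.9% for *Arid2*, 47.2% for *Brd7* and 42.4% for *Phf10*), and this dependence differed between libraries and, in scr cells, between treatments. The trend at *Pbrm1*, on the log2 scale relative to the average library, was -0.21 and -0.51 in the scr NT libraries, -0.33 and 0.02 with Cu, and 0.17 and 0.24 with Zn. In *Baf180* KD cells it was 0.11 and 0.26 without metal, -0.31 and -0.11 with Cu, and -0.17 and 0.05 with Zn. In each of the 4 cell lines the 6 libraries stood in the same order by this trend and by their *Pbrm1* level. After a correction for this trend the transcript left in *Baf180* KD cells was 40.2% of scr without metal, 34.8% with Cu and 30.8% with Zn, and all of these were called (edgeR adjusted p of 2.76e-06, 4.75e-05 and 9.43e-09). The spread of the knockdown depth over treatments was thus 24.5% to 59.2% in the counts as deposited and 30.8% to 40.2% after the correction. Since the trend itself differs between conditions, the correction can also remove a real metal effect, and its part in the differences was not tested.

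**Figure D2:**
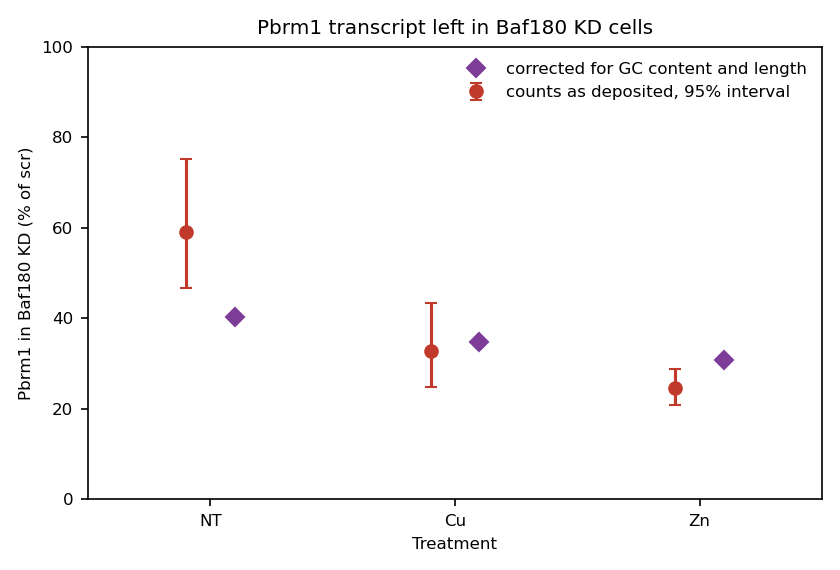
*Pbrm1* transcript in *Baf180* KD cells as a percentage of scr cells of the same treatment, from counts as deposited (circles with 95% intervals from edgeR, 2 libraries against 2) and after a correction for GC content and length (diamonds, no interval drawn). The deposited counts give 59.2% without metal, 32.9% with Cu and 24.5% with Zn, and the corrected ones 40.2%, 34.8% and 30.8%.

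**Figure D3:**
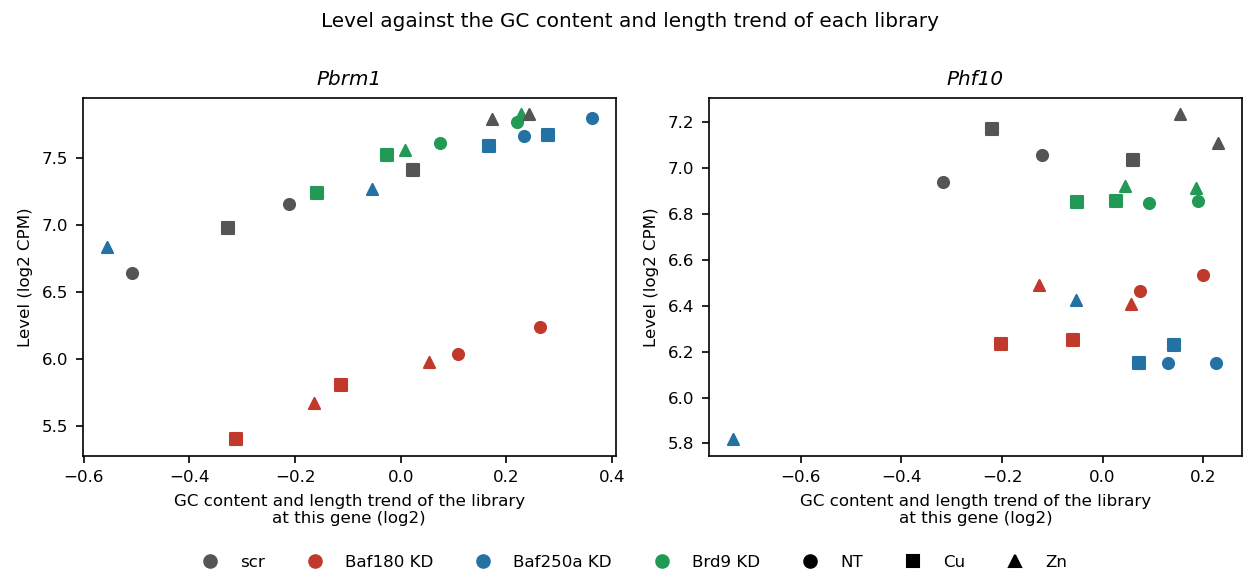
Level of *Pbrm1* and *Phf10* (log2 CPM) against the GC content and length trend of each library at that gene (log2), with cell lines in color and treatments by symbol. For *Pbrm1*, the *Baf180* KD libraries form a separate band below the other 18 libraries, and within each line the 6 libraries stand in the same order on both axes. For *Phf10*, the shallow library stands alone at a trend of -0.74.

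In the KD lines of the other complexes, *Pbrm1* was not called over the 3 treatments. The log2 fold change against scr was 0.24 in *Baf250a* KD (95% interval -0.20 to 0.68, edgeR adjusted p = 0.358; 0.36 and 0.132 without the shallow library) and 0.26 in *Brd9* KD (-0.06 to 0.59, edgeR adjusted p = 0.205). In these comparisons 51.8% and 32.8% of all genes were called. The values within treatments ran in both directions. Without metal, *Pbrm1* was at 204 and 223 CPM in *Baf250a* KD and at 197 and 219 CPM in *Brd9* KD cells, all above both scr NT libraries, with fold changes on the log2 scale of 0.82 (SE 0.15, edgeR adjusted p = 3.88e-04) and 0.79 (SE 0.17, edgeR adjusted p = 0.0109). With Zn it was at 155 and 115 CPM in *Baf250a* KD cells, below both scr libraries (log2 fold change -0.62, SE 0.11, edgeR adjusted p = 8.64e-07), and without the shallow library the value was -0.58. With Cu, *Baf250a* KD cells were at 204 and 193 CPM (0.44, SE 0.15, edgeR adjusted p = 0.0479), a call lost without either *Baf250a* KD Cu replicate (0.41, 0.261 and 0.48, 0.173). After the GC correction none of the *Baf250a* KD values for *Pbrm1* was called (0.16 without metal, 0.05 with Cu and -0.22 with Zn), and the value in *Brd9* KD cells without metal was 0.28 (edgeR adjusted p = 0.0339). The call in *Brd9* KD cells without metal was lost without *Brd9* KD NT replicate 2 (0.67, edgeR adjusted p = 0.0922).

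*Phf10* (chr17:14945009-14961273, minus strand) was below the scr range in every KD library. In scr cells it was at 133 and 123 CPM without metal, 144 and 131 CPM with Cu, and 151 and 138 CPM with Zn. In *Baf180* KD cells it was at 88.4 and 92.8, 75.3 and 76.1, and 89.9 and 84.8 CPM under the same treatments. In *Baf250a* KD cells it was at 70.9 and 71.0, 75.1 and 71.1, and 85.9 and 56.4 CPM, the last in the shallow library. In *Brd9* KD cells it stayed between 115 and 121 CPM. The highest *Brd9* KD library (121 CPM) was just under the lowest scr library (123 CPM).

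Over the 3 treatments *Phf10* was lower in *Baf180* KD (61.0% of scr, 95% interval 54.7% to 68.0%; log2 fold change -0.71, SE 0.07, edgeR adjusted p = 3.94e-06). It was lower in *Baf250a* KD (54.6%, 48.4% to 61.6%; -0.87, or -0.84 without the shallow library, SE 0.08, edgeR adjusted p = 6.74e-07) and in *Brd9* KD (85.1%, 78.6% to 92.1%; -0.23, SE 0.05, edgeR adjusted p = 0.00390). The share of all genes called lower was 19.1% in *Baf180* KD, 25% in *Baf250a* KD and 16.4% in *Brd9* KD, and *Phf10* stood at percentiles 6.7, 8.7 and 21.1 of the fold changes. The lines differed from each other. *Phf10* was lower in *Baf180* KD than in *Brd9* KD cells (log2 fold change -0.50, SE 0.05, edgeR adjusted p = 3.81e-07) and lower in *Baf250a* KD than in *Brd9* KD cells (-0.64, SE 0.07, edgeR adjusted p = 2.05e-07). Between *Baf180* KD and *Baf250a* KD the difference was 0.19 (SE 0.07, edgeR adjusted p = 0.0471), and it was not called without the shallow library (0.15, edgeR adjusted p = 0.0762) nor without any 1 of 7 other libraries, both *Baf180* KD NT and both *Baf250a* KD NT replicates among them. Of all genes tested, 40.8% were called between *Baf180* and *Brd9* KD, 54.1% between *Baf250a* and *Brd9* KD, and 44.7% between *Baf180* and *Baf250a* KD.

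Within treatments *Phf10* was called lower in *Baf180* KD and in *Baf250a* KD cells under each of the 3, with log2 fold changes from -0.87 to -0.48 and from -0.89 to -0.81. In *Baf250a* KD with Zn the value was -0.81, and -0.78 without the shallow library. The background in *Baf250a* KD was 57.8% of genes called without metal, 41.2% with Cu and 57.5% with Zn. In *Brd9* KD cells *Phf10* was called with Zn only (-0.28, SE 0.07, edgeR adjusted p = 0.0244), where 23.2% of genes were called, against 29.2% without metal and 12.2% with Cu. After the GC correction the values were -0.84, -0.80 and -0.47 in *Baf180* KD without metal, with Cu and with Zn, and -1.25, -1.10 and -0.45 in *Baf250a* KD, the last no longer called (edgeR adjusted p = 0.0726). The call in *Baf180* KD without metal was lost without *Baf180* KD NT replicate 1 (-0.47, edgeR adjusted p = 0.0566), and that in *Brd9* KD with Zn without scr Zn replicate 1 (-0.24, 0.397) or replicate 2 (-0.35, 0.132).

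*Brd7* (chr8:88331039-88362194, minus strand) varied least of the 4 over the libraries, from 52.8 to 75.8 CPM. It was at 67.2 to 71.5 CPM (median 68.8) in scr cells, 52.8 to 62.4 CPM (median 58.0) in *Baf180* KD, 57.7 to 75.8 CPM (median 60.2) in *Baf250a* KD and 61.2 to 65.9 CPM (median 63.5) in *Brd9* KD cells. The *Baf180* KD and *Brd9* KD libraries all lay below the scr range, and the *Baf250a* KD libraries did so except the shallow one, which was the highest of all 24 with 39 counts. How often other genes lie outside the scr range in this way is not given here. The *Baf180* KD level was below that of *Brd9* KD (-0.15, SE 0.05, edgeR adjusted p = 0.0159), a call lost when any 1 of 7 of the 12 libraries was left out. Over the 3 treatments *Brd7* was lower in *Baf180* KD (83.2% of scr, 95% interval 76.7% to 90.3%; log2 fold change -0.26, SE 0.05, edgeR adjusted p = 0.00160). In *Brd9* KD it was at 91.0% of scr (84.9% to 97.6%; -0.14, SE 0.05, edgeR adjusted p = 0.0390), a call that was lost when any 1 of 11 of the 12 libraries was left out (values between -0.14 and -0.13) and kept only without scr NT replicate 2. In *Baf250a* KD it was at 90.1% (81.1% to 100%, edgeR adjusted p = 0.0887), and without the shallow library it was called (-0.19, edgeR adjusted p = 0.0203).

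Brd7 and Brd9 are related proteins, and the closest stretch of *Brd7* differs from the target of the first *Brd9* shRNA at 4 of 21 bases, and from that of the second at 7. This first target, in *Brd9* coding sequence (chr13:73940726-73940746, plus strand), is shown for that reason, and its part in the *Brd7* value was not tested.

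Brd9 shRNA1: tggactttggcacgatgaaag

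Within single treatments *Brd7* was called in 1 of 9 comparisons, *Baf180* KD with Zn (-0.28, SE 0.07, edgeR adjusted p = 0.00772), and this call was lost without scr Zn replicate 1 (-0.30, 0.0555) or replicate 2 (-0.27, 0.111). All 9 values were negative, from -0.32 to -0.10.

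*Arid2* (chr15:96287518-96404992, plus strand) was the only member not called lower in any KD line over the 3 treatments in the main test. With the GC correction its value in *Baf250a* KD turned negative and was called. Its log2 fold change against scr was 0.20 in *Baf180* KD (95% interval 0.01 to 0.38, edgeR adjusted p = 0.0794), 0.05 in *Baf250a* KD (-0.19 to 0.30, 0.731; 0.12 and 0.310 without the shallow library) and 0.11 in *Brd9* KD (-0.03 to 0.24, 0.221), none of them called. Without metal, however, it was higher in every KD line. It was at 142 and 129 CPM in scr cells, 192 and 191 CPM in *Baf180* KD, 164 and 176 CPM in *Baf250a* KD and 165 and 166 CPM in *Brd9* KD cells. The log2 fold changes were 0.52 (SE 0.10, edgeR adjusted p = 0.00217), 0.33 (SE 0.10, 0.0158) and 0.31 (SE 0.10, 0.0462), and these 3 comparisons share the same 2 scr libraries. After the GC correction none of the 3 was called (0.15, -0.11 and 0.05), and the trend at *Arid2* in the 24 libraries ran from -0.31 to 0.24. The calls were also lost without *Baf180* KD NT replicate 2 (0.48, edgeR adjusted p = 0.0530), without either *Baf250a* KD NT replicate (0.36, 0.0865 and 0.28, 0.177), and without either *Brd9* KD NT replicate (0.32, 0.197 and 0.26, 0.326) or scr NT replicate 2 (0.23, 0.163 for *Brd9* KD). With Cu or Zn no *Arid2* value passed the test except in *Baf250a* KD with Zn, where it was lower (-0.37, SE 0.10, edgeR adjusted p = 8.89e-04; -0.34 without the shallow library). That call was lost without scr Zn replicate 1 (-0.48, 0.202) or replicate 2 (-0.43, 0.278).

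**Figure D4:**
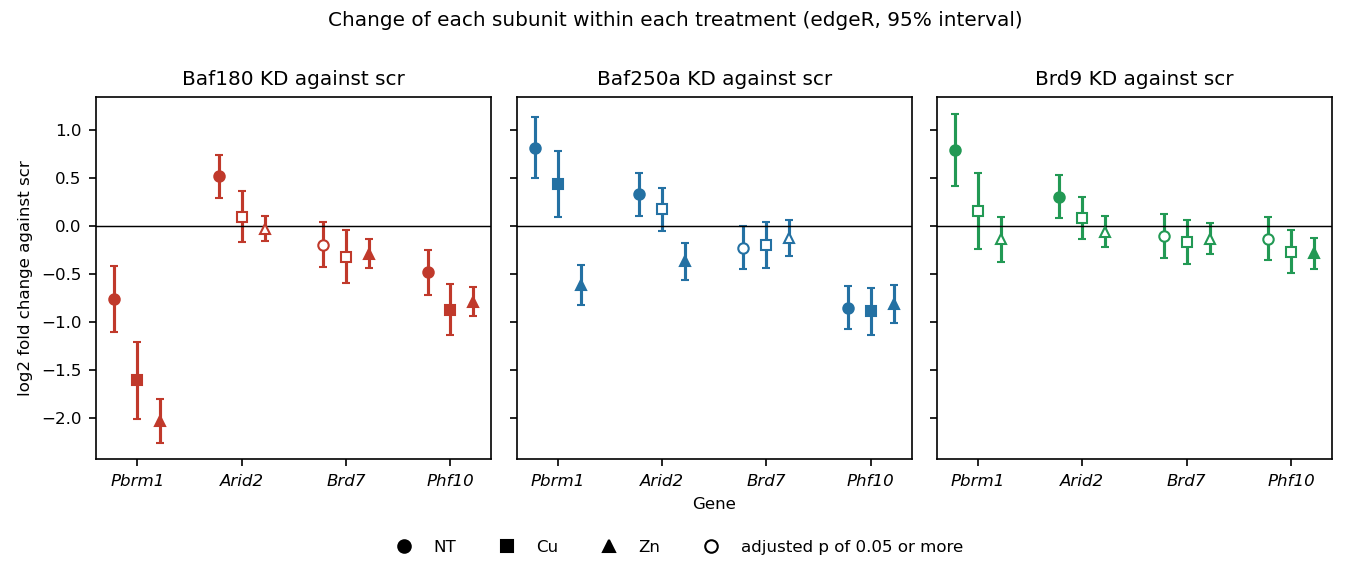
log2 fold change of each member against scr cells of the same treatment (2 libraries against 2) in the 3 KD lines, with 95% intervals from edgeR and open symbols where the adjusted p is 0.05 or more. *Phf10* lies below 0 in all 9 comparisons, and *Arid2* is highest without metal in each line (0.52, 0.33 and 0.31).

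Counted over the 3 treatments, 3 of the 4 members were lower and 0 higher in *Baf180* KD cells, 1 lower and 0 higher in *Baf250a* KD, and 2 lower and 0 higher in *Brd9* KD. The median log2 fold change of the members was -0.49, -0.05 and -0.02, against -0.02, 0.00 and 0.00 over all genes. For comparison, 22.2% of all genes were called higher and 19.1% lower in *Baf180* KD, 26.7% and 25% in *Baf250a* KD, and 16.4% and 16.4% in *Brd9* KD, so that 1 of 4 lower in *Baf250a* KD is the share of all genes. The 3 comparisons share the 6 scr libraries. The count in *Baf180* KD includes the targeted gene. None of the partner subunits was called higher over the 3 treatments in the line in which *Pbrm1* was knocked down.

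The balance among the members within a library was compared by the log2 ratio of each pair, with an exact two-sided permutation test within treatments (6 libraries against 6, 18 tests adjusted together, smallest p possible 0.00926). Pairs share members and are not independent, and those with *Pbrm1* hold the gene targeted in *Baf180* KD. No share is given here for ratios of other gene pairs. Of single genes, edgeR called 41.3% in *Baf180* KD, 51.8% in *Baf250a* KD and 32.8% in *Brd9* KD over the 3 treatments. In *Baf180* KD cells all 6 ratios differed from scr. *Pbrm1* over *Arid2* fell to 31.6% of its scr value (exact p = 0.00926, adjusted 0.0167), *Pbrm1* over *Brd7* to 43.6% and *Pbrm1* over *Phf10* to 59.4% (exact p = 0.0185, adjusted 0.0278, ranges overlapping). The ratios among the 3 partners changed too: *Arid2* over *Phf10* was at 188% of scr, *Arid2* over *Brd7* at 138% and *Brd7* over *Phf10* at 136%, with no overlap between the 6 KD and 6 scr libraries (each exact p = 0.00926, adjusted 0.0167). In *Baf250a* KD cells the 3 ratios with *Phf10* differed (*Pbrm1* over *Phf10* 215.8%, *Arid2* over *Phf10* 191%, *Brd7* over *Phf10* 173% of scr, each adjusted exact p = 0.0167), and the other 3 did not pass the test (110% to 125%, adjusted exact p from 0.256 to 0.444). In *Brd9* KD cells *Arid2* over *Phf10* (127%) and *Arid2* over *Brd7* (118%) differed without overlap (each adjusted exact p = 0.0167), *Pbrm1* over *Phf10* (142%) and *Brd7* over *Phf10* (107%) with overlap (adjusted exact p of 0.0385 and 0.0278). *Pbrm1* over *Arid2* and over *Brd7* did not pass the test there (112% and 133%, adjusted exact p of 0.281 and 0.0952). Leaving out a library leaves fewer arrangements for the exact test. Without some single libraries the 3 called ratios whose ranges overlapped lost their call, with values of the same sign. That of *Pbrm1* over *Phf10* was no longer called in *Baf180* KD without *Baf180* KD Cu replicate 1 or scr Cu replicate 2 (log2 differences of -0.69 and -0.66), nor in *Brd9* KD without both Cu replicates in turn, Zn replicate 2, scr Cu replicate 1 or scr Zn replicate 1 (0.41 to 0.55). That of *Brd7* over *Phf10* in *Brd9* KD was not called without any *Brd9* KD Cu or Zn replicate, *Brd9* KD NT replicate 1 or scr NT replicate 1 (0.09 to 0.10). Without the shallow library the 3 called ratios of *Baf250a* KD stayed called.

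Levels of different genes can be compared only per length of transcript, here as CPM per kilobase of exonic sequence. On this scale the members stood within a narrow range in scr cells, with a mean over 6 libraries of 27.8 ± 2.01 (SD) for *Phf10*, 18.6 ± 5.87 for *Pbrm1*, 14.1 ± 1.59 for *Arid2* and 13.2 ± 0.294 for *Brd7*. *Phf10* was the highest of the 4 in all 6 scr libraries. In *Baf180* KD cells *Pbrm1* was the lowest in all 6 (6.67 ± 1.33), below *Brd7* (11.1 ± 0.669), *Arid2* (16.4 ± 1.37) and *Phf10* (17.2 ± 1.49). In *Baf250a* KD cells *Pbrm1* was the highest in 5 of 6 libraries, all but the shallow one, and *Phf10* was below it (14.6 ± 1.93 against 20.6 ± 4.55). The spread of *Pbrm1* over all 24 libraries was 5.40-fold from lowest to highest CPM, against 2.67-fold for *Phf10*, 1.83-fold for *Arid2* and 1.44-fold for *Brd7*.

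Metal responses within a cell line were read on 6 libraries. In scr cells, where *Pbrm1* rose with Zn as given above, *Arid2* rose as well (0.43, SE 0.09, edgeR adjusted p = 0.0290), *Phf10* and *Brd7* were not called (0.26 and 0.09), and 17.6% of all genes were called. The call of *Arid2* was lost without the same 3 libraries as that of *Pbrm1* (0.34 to 0.46). With Cu no member was called in scr cells (*Pbrm1* 0.31, edgeR adjusted p = 0.581), where 0.0333% of genes were. In *Baf180* KD cells Cu went with lower *Pbrm1* (-0.56, SE 0.15, edgeR adjusted p = 0.0386), *Arid2* (-0.29, SE 0.08, 0.0391) and *Phf10* (-0.29, SE 0.08, 0.0432), 3 of 4 members against 13.8% of all genes. *Brd7* was at -0.16 (edgeR adjusted p = 0.276). The *Pbrm1* call was lost without *Baf180* KD Cu replicate 1 (-0.37, edgeR adjusted p = 0.245) or NT replicate 2 (-0.43, 0.259), that of *Arid2* also without NT replicate 1 or Zn replicate 1, and that of *Phf10* without any 1 of the 6 libraries. With Zn no member was called in that line, where 0.0197% of genes were. In *Baf250a* KD cells Zn went with lower *Pbrm1* (-0.54, SE 0.11, edgeR adjusted p = 0.00152) and *Arid2* (-0.35, SE 0.11, 0.0245), against 15.9% of all genes. Without the shallow library these were -0.48 and -0.30, both still called, and *Phf10* was then called higher (0.26, edgeR adjusted p = 0.0397). The *Arid2* call was lost without either *Baf250a* KD NT replicate (-0.42, edgeR adjusted p = 0.0512 and -0.32, 0.237) or without Zn replicate 1 (-0.68, 0.0543). No member was called with Cu in *Baf250a* KD, nor with either metal in *Brd9* KD cells, where 1.27%, 0.274% (Cu) and 0.0334% (Zn) of genes were.

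None of the metal responses of *Pbrm1* and *Arid2* named above was called after the GC correction. With it, *Pbrm1* was at 0.33 in scr cells with Zn, -0.13 in *Baf180* KD with Cu and -0.12 in *Baf250a* KD with Zn, and *Arid2* was at 0.14, -0.07 and -0.18. *Phf10* in *Baf180* KD with Cu was at 0.01. The GC correction gave *Phf10* a called rise in *Baf250a* KD with Zn (0.49, edgeR adjusted p = 0.0103).

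The differences between the metal responses of a KD line and of scr cells were tested on all 24 libraries. For Zn, *Pbrm1* differed in *Baf180* KD (-1.20, SE 0.25, edgeR adjusted p = 0.00207), *Baf250a* KD (-1.46, SE 0.26, 4.97e-04) and *Brd9* KD (-0.89, SE 0.24, 0.0319), and *Arid2* in *Baf180* KD (-0.47, SE 0.12, 0.00782) and *Baf250a* KD (-0.73, SE 0.13, 5.12e-04). These comparisons share the scr libraries. Of all genes, 28.7%, 30.5% and 11.1% were called in the 3 lines. For Cu, *Pbrm1* (-0.82, SE 0.25, edgeR adjusted p = 0.0349) and *Arid2* (-0.39, SE 0.12, 0.0391) differed in *Baf180* KD, where 12.8% of genes were called, and no member did in *Baf250a* KD (0.0121% of genes) or *Brd9* KD (0.0363%). *Brd7* and *Phf10* were not called in any of the 6. Without the shallow library, the Cu difference of *Phf10* in *Baf180* KD (-0.37) and the Zn difference of *Arid2* in *Brd9* KD (-0.32) were also called. After the GC correction the Zn differences of *Pbrm1* in *Baf180* KD (-0.41, edgeR adjusted p = 0.0472) and *Baf250a* KD (-0.44, 0.0223) and of *Arid2* in *Baf250a* KD (-0.31, 0.0344) were called, and the other 4 were not. The Zn difference of *Phf10* in *Baf250a* KD turned positive with this correction and was then called.

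Of the other 25 SWI/SNF subunit genes, 23 passed the filter on low counts. *Actl6b*, a neuronal actin-like subunit, had 0 counts in every library, and *Dpf3*, a cBAF PHD-finger subunit, was at most 0.290 CPM. Over the 3 treatments 4 were higher and 4 lower in *Baf180* KD, 4 and 5 in *Baf250a* KD, and 4 and 3 in *Brd9* KD, with medians of 0.03, -0.02 and 0.00. These counts are near or below the shares of all genes called higher and lower in the same lines (22.2% and 19.1%, 26.7% and 25%, 16.4% and 16.4%). These shares are from the uncorrected fits, and none is given here for the GC correction. After that correction the split was 3 higher and 13 lower, 3 and 12, and 4 and 5. Without the shallow library it was 4 and 7 in *Baf250a* KD, and the count of lower genes in *Baf180* KD was 2 without *Baf180* KD Cu replicate 1, Cu replicate 2 or Zn replicate 2.

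In *Baf180* KD cells the genes called higher were *Smarca2*, *Smarcd1*, *Dpf1* and *Brd9*, and those called lower *Arid1a*, *Ss18*, *Smarcd3* and *Actl6a*. *Smarca2*, the alternative ATPase to *Smarca4*, was at 11.4 to 16.9 CPM against 3.34 to 5.35 CPM in scr cells (log2 fold change 1.65, SE 0.13, edgeR adjusted p = 3.21e-07). *Smarca4* was not called (0.14, edgeR adjusted p = 0.107). *Brd9* was at 35.8 to 45.4 CPM against 27.2 to 32.4 CPM, with all 6 libraries above the scr range (0.38, SE 0.07, edgeR adjusted p = 6.58e-04). *Arid1a*, the cBAF counterpart of *Arid2*, was lower (-0.30, SE 0.06, edgeR adjusted p = 0.00148), and its paralog *Arid1b* was not called (0.15, edgeR adjusted p = 0.0587). *Dpf1*, one of the cBAF counterparts of *Phf10*, was higher (0.43, SE 0.11, edgeR adjusted p = 0.00600) from a low level (6.55 CPM on average in scr cells), and *Dpf2*, the more abundant one, was at -0.17 (edgeR adjusted p = 0.0642).

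Values of 4 genes of the list that were called in each KD line are given side by side. The share of all genes called in all 3 lines at once is not given here. The 3 comparisons share the 6 scr libraries, so their agreement is not independent. *Smarca2* was higher (1.65, 2.15 and 1.87 in *Baf180*, *Baf250a* and *Brd9* KD), although the shallow library held only 2 counts of it. *Smarcd1*, a core subunit of the Baf60 family, was higher too (0.57, 0.56 and 0.46). *Smarcd3*, the Baf60 paralog that is known for its role in muscle, was lower (-0.26, -0.62 and -0.36), as was the actin-like subunit *Actl6a* (-0.36, -0.78 and -0.17). The knockdowns of the other lines read 37.7% of scr for *Arid1a* in *Baf250a* KD (95% interval 32.7% to 43.5%) and 54.2% for *Brd9* in *Brd9* KD (48.2% to 61.0%), beside 36.1% for *Pbrm1*. *Brd9* was higher in *Baf250a* KD as well (0.48, SE 0.10, edgeR adjusted p = 0.001000).

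**Figure D5:**
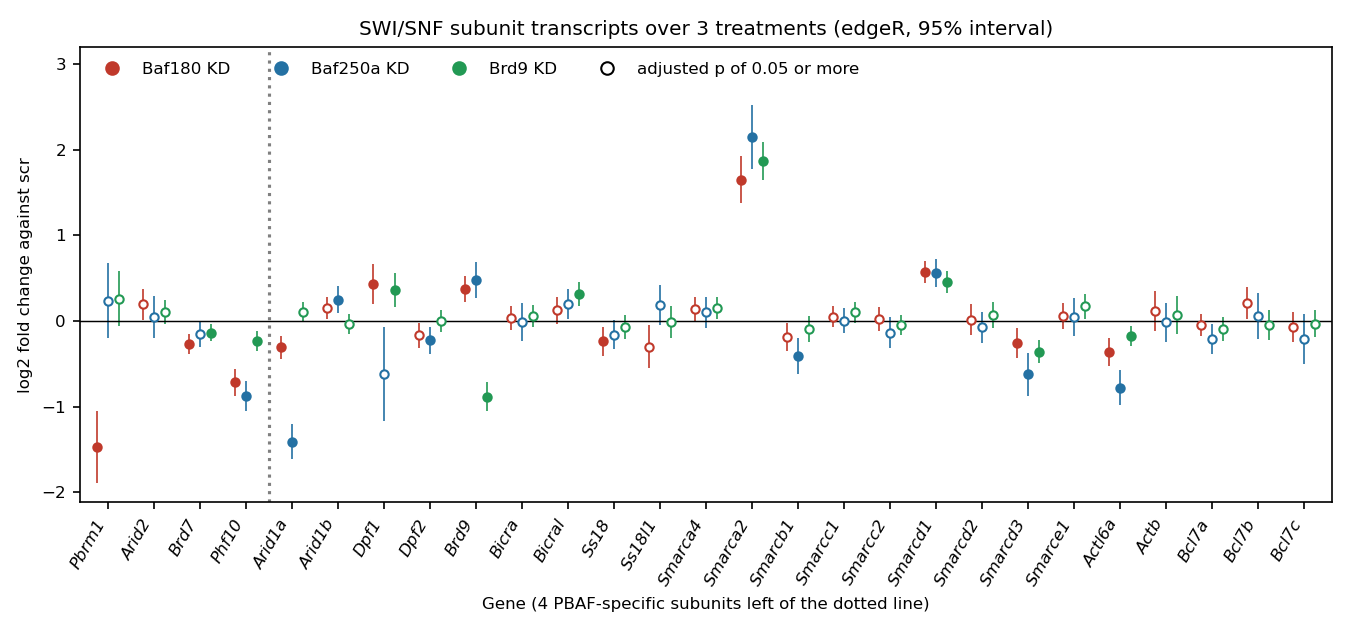
log2 fold change against scr over the 3 treatments (6 libraries against 6) of the 4 PBAF-specific subunits and the 23 other SWI/SNF genes tested, with 95% intervals from edgeR and open symbols where the adjusted p is 0.05 or more. *Smarca2* has the highest values in all 3 KD lines (1.65, 2.15 and 1.87), and each targeted gene is the lowest of its line.

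The genes whose pattern over the 24 libraries was closest to a member were named by the smallest root-mean-square difference of centered log2 CPM, among 9301 genes of at least 10 CPM on average. For *Pbrm1* they were *Tfpi*, *Tafa5* and *Casc4*, at 0.39 to 0.42, against its own SD of 0.77. For *Arid2* they were *Kmt2a*, *Prxl2c* and *Stx17* (0.08 to 0.10, own SD 0.18), for *Brd7* *Mis12*, *Glyr1* and *Usp48* (0.09 to 0.10, own SD 0.12), and for *Phf10* *Glce* and *Samd8* (0.11 and 0.12, own SD 0.39). Without the shallow library the genes named for *Pbrm1* and *Phf10* were again among the closest 3, *Lrch3* replaced *Prxl2c* for *Arid2*, and all 3 changed for *Brd7*.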

How the data were processed

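RNA was sequenced from 24 libraries (4 lines, 3 treatments, 2 replicates) after ribosomal RNA removal and directional library preparation. The authors deposited raw counts per gene symbol, made by featureCounts from unique STAR alignments to mm10, with strand used. The deposited tables of the authors' own comparisons hold log2 fold changes, standard errors and p-values and were not used here. Groups were taken from sample titles, since another label contradicts them. Columns of other samples numbered 0.

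GENCODE M21 (GRCm38) gave gene lengths, GC content and coordinates, in which 53186 of the 55291 symbols matched 1 gene. The main test was edgeR 4.0.16 (quasi-likelihood, TMM factors, filterByExpr, R 4.3.3) on all genes, with Benjamini-Hochberg adjustment and a threshold of 0.05. KD and scr cells were compared over 3 treatments with treatment as a term, and within each treatment. CPM ratios of members used an exact two-sided permutation test. Intervals are 95% and, like those p-values, cover only the spread between these replicates. The GC correction subtracted a spline trend (5 degrees of freedom) of each library. Alternatives were DESeq2 1.42.0, RLE factors, genes with at least 1 count, thinned counts, the GC correction, all 24 libraries in 1 fit, a minimum fold of 1.5, a replicate block and leaving out each library. Thinning cut every library to about the depth of the shallow one (495778 counts, against a median of 22158430). Scripts were tested on simulated data.

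The members and gene lists were chosen with earlier results of these data known. Similar genes were named as the 3 closest per member, of which 1 is not reported here. Genes named outside the members were those of the subunit list and of the marker list.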

Additional observations from a re-analysis of the deposited data

Results flagged for a closer look

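For 7 results the metal response of a member differed between a KD line and scr cells by the test of that difference (edgeR, 24 libraries). All 7 share the scr NT libraries. For Cu these were *Pbrm1* (-0.82) and *Arid2* (-0.39) in *Baf180* KD. For Zn they were *Pbrm1* in *Baf180* KD (-1.20), *Baf250a* KD (-1.46) and *Brd9* KD (-0.89), and *Arid2* in *Baf180* KD (-0.47) and *Baf250a* KD (-0.73). Of all genes, 12.8% were called for Cu in *Baf180* KD. For Zn it was 28.7% in *Baf180* KD, 30.5% in *Baf250a* KD and 11.1% in *Brd9* KD. After the GC correction only the Zn differences of *Pbrm1* in *Baf180* and *Baf250a* KD and of *Arid2* in *Baf250a* KD stayed called.

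The *Pbrm1* difference for Cu in *Baf180* KD was not called without *Baf180* KD Cu replicate 1 (-0.64), *Baf180* KD NT replicate 2 (-0.72), scr Cu replicate 2 (-0.59) or scr NT replicate 2 (-0.59). That for Zn in *Brd9* KD was not called without *Brd9* KD NT replicate 2 (-0.81), *Brd9* KD Zn replicate 1 (-0.76), scr NT replicate 2 (-0.65), scr Zn replicate 1 (-0.91) or scr Zn replicate 2 (-0.87). The *Arid2* difference for Cu was not called when any 1 of 14 of the 24 libraries was left out, and that for Zn in *Baf180* KD not without scr NT replicate 2 (-0.41). Without the shallow library the *Baf250a* KD differences for Zn were -1.36 for *Pbrm1* and -0.64 for *Arid2*, both called.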

How the results depend on the processing

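Over the 3 treatments, *Pbrm1* and *Phf10* kept direction and call in *Baf180* KD under every alternative except the minimum fold of 1.5 for *Phf10* (-0.71). Other changes of the main calls were as follows. With all 24 libraries in 1 fit, *Arid2* in *Baf180* KD (0.22), *Brd7* in *Baf250a* KD (-0.17) and *Pbrm1* in *Brd9* KD (0.28) were called, and *Brd7* in *Brd9* KD (-0.12) was not. With genes of at least 1 count, *Pbrm1* in *Brd9* KD (0.26) and its Cu difference there (-0.60) were called, and *Brd7* in *Brd9* KD (-0.14) was not. DESeq2 called *Brd7* in *Baf250a* KD (-0.18). In thinned counts the calls of *Brd7* in *Baf180* KD (-0.17) and *Brd9* KD (-0.25), *Phf10* in *Brd9* KD (-0.24) and *Pbrm1* in *Baf180* KD without metal (-0.83) were lost, as were the *Pbrm1* differences for Cu (-0.89) and Zn (-0.96) in *Baf180* KD and for Zn in *Brd9* KD (-0.53). Under the minimum fold, *Brd7* in *Baf180* KD (-0.26) and *Brd9* KD (-0.14), *Phf10* in *Brd9* KD (-0.23) and *Pbrm1* in *Baf180* KD without metal (-0.76) were not called. With the GC correction *Brd7* in *Baf250a* KD was called (-0.26), and the *Pbrm1* differences for Cu in *Baf180* KD (-0.22) and Zn in *Brd9* KD (-0.31) were not. Directions turned with the GC correction for *Arid2* in *Baf250a* KD against scr, over treatments (-0.22) and without metal (-0.11). They also turned for the response of *Phf10* to Cu within *Baf180* KD cells (0.0078) and for the *Phf10* Zn difference in *Baf250a* KD (0.75). Of these, the *Arid2* value over treatments and the *Phf10* Zn difference were called after the correction but not in the main test. In thinned counts, directions turned for *Brd7* between *Baf180* and *Brd9* KD (0.067) and for *Brd7* over *Phf10* in *Brd9* KD (-0.00103). Apart from the minimum fold and the thinning, which ask for a larger change or use fewer reads, the cause was not tested.

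Among the 36 comparisons within treatments, 11 calls were lost in thinned counts, and with the GC correction 8 were lost and 5 gained. Among 32 metal responses thinning lost 7, and among 12 comparisons of KD lines genes of at least 1 count lost 2, *Phf10* between *Baf180* and *Baf250a* KD (0.18) and *Brd7* between *Baf180* and *Brd9* KD (-0.13). Of the ratios, thinning lost *Arid2* over *Brd7* (0.26) and *Brd7* over *Phf10* (0.54) in *Baf180* KD, *Brd7* over *Phf10* in *Baf250a* KD (0.80), and *Arid2* over *Brd7* (0.39) and *Pbrm1* over *Phf10* (0.43) in *Brd9* KD. The GC correction lost *Brd7* over *Phf10* in *Brd9* KD (0.12) and gained *Pbrm1* over *Arid2* in *Baf250a* KD (0.22) and *Brd9* KD (0.14) and *Pbrm1* over *Brd7* in *Brd9* KD (0.34).

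Leaving out each library gave ranges of -0.19 to -0.14 for *Brd7* in *Baf250a* KD, -0.15 to -0.13 for *Brd7* in *Brd9* KD, -1.10 to -0.59 for the *Pbrm1* difference for Cu in *Baf180* KD, and -1.16 to -0.65 for that for Zn in *Brd9* KD. For *Pbrm1* in *Baf180* KD all calls were kept (-1.61 to -1.36 over treatments). Genes called over the 3 treatments numbered 6548, 8190 and 5158 in *Baf180*, *Baf250a* and *Brd9* KD, against 1966, 3136 and 1056 in thinned counts and 2165, 3273 and 1105 under the minimum fold. Among the other 23 subunit genes the higher and lower counts in these lines were 8 and 7, 5 and 10, and 6 and 3 with all 24 libraries in 1 fit, 1 and 2, 2 and 3, and 2 and 1 in thinned counts, and 1 and 0, 1 and 2, and 1 and 1 under the minimum fold. For the fit of all 24 libraries no share of all genes is given here.

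Replicate pairing was not settled, as replicate differences correlated at -0.185 to 0.395 between conditions (median 0.06, 36 of 66 pairs under 0.1). A fit with the replicate number as a block left *Pbrm1* in *Baf180* KD at -1.48 and changed none of the 12 calls over treatments. Within treatments it lost 1 of 36 calls, *Arid2* in *Brd9* KD without metal (0.31), and among 32 metal responses it lost *Pbrm1* (0.98) and *Arid2* (0.43) in scr cells with Zn and gained *Pbrm1* in *Baf180* KD with Zn (-0.33). It changed no call between KD lines or between metal responses. Under the block all 13 called ratios of members lost their call, with adjusted exact permutation p-values of 0.0511 to 0.0865, where the smallest unadjusted p possible is 0.0312. Depth limits *Baf250a* KD with Zn, where 1 of the 2 libraries holds 495778 counts.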
